A study of Drosophila melanogaster with 3 samples.

Results

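The 8 genes described here mark hemocytes, the blood cells of Drosophila, or act in phagocytosis by them: *Hml*, *He*, *eater*, *NimC1*, *Pxn*, *crq*, *srp* and *ush*. They were found by their symbols in the deposited expression table, where 7 are written as here and 1, *NimC1*, as *nimC1* and matched by its gene ID, FBgn0259896. All 8 of 8 were present among the 15603 genes of the table, and each was above 5 FPKM (fragments divided by transcript length and by the mapped fragments of the library, a level that can be compared between genes) in at least 1 library. The study asked how NF-kB signaling acts in an eye disc carcinoma, and RNA of eye-antennal discs of wandering larvae at day 6 was sequenced from 3 libraries, with 50 discs each, all given as batch 1. The tumor library held GFP+ cells of discs with RasV12; scrib-/- clones (alleles y,w and ey-flp/y,w on the first chromosome, UAS-RasV12 over Act>y+>Gal4 with UAS-GFP on the next, and Frt82B scrib2 over Frt82B with tubGal80). The TME library held GFP- cells of discs of this same genotype, the tumor microenvironment. The control library held GFP+ cells of GMRGFP discs, in which the GMR promoter labels cells behind the morphogenetic furrow, so that the controls are a later eye region and are listed with neither flp clones, RasV12 nor scrib2. Discs were pooled, and how GFP+ and GFP- cells were separated is not given in the sources used here.

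Larval hemocytes are mostly plasmatocytes, macrophage-like cells that take up bacteria and dying cells, with a minority of crystal cells, which carry the enzymes of melanization, and lamellocytes, which encapsulate parasites. Plasmatocytes bind their targets with transmembrane receptors, many of them of the Nimrod family with its EGF-like repeats, and secrete clotting factors and basement membrane proteins into the hemolymph. Their fate depends on GATA transcription factors and on Friend-of-GATA cofactors, which also act in other tissues.

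With 1 library per group there was no estimate of the spread between discs or preparations, and no p-value, SD or SE is given. The depth fitted from the steps of the FPKM values was 1841352 fragments for tumor, 11012159 for TME and 1764734 for control cells. Each ratio stands with its exact 95% Clopper-Pearson interval on the estimated fragments, which leave out every error but that of counting. A gene was called higher or lower when it was above 5 FPKM in the higher library and differed by at least 2-fold. Scaling by the median ratio would divide tumor over TME ratios by 1.10, tumor over control by 1.03 and TME over control by 0.937, and it changed no call of the 8 genes. *Ras85D* was at 327 FPKM in tumor cells, 118 in TME cells and 139 in control cells. *scrib* was at 51.0, 44.6 and 36.2 FPKM in tumor cells, TME and control, and FPKM does not tell the mutant from the normal allele. The retinal and disc genes *ey*, *toy*, *eya*, *so*, *dac* and *hth* summed to 405 FPKM in tumor cells, 410 in TME cells and 281 in control cells. Disc genes were thus expressed in each library, but the sum does not tell which region of the disc the cells came from. A level of 0 may be a failed estimate, since *RpL15*, whose product is part of every ribosome, was listed at 0 in all 3 libraries. The tumor and TME columns are headed by the same date and the control column by no date, and what the date stands for is not stated.

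Of the 8 hemocyte genes, 6 were far lower in tumor cells than in both other libraries, at 3.15 FPKM or less there. *Hml*, *He*, *eater* and *NimC1*, the genes best known as blood cell markers, summed to 5.60 FPKM in tumor cells, 249 in TME cells and 244 in control cells. Thus their sum was 44.4-fold lower in tumor than in TME cells and 43.6-fold lower than in control cells. Between the TME and control libraries the sum differed by a ratio of 1.02, with *Hml* 2.65-fold higher and *He* at a ratio of 0.783 in TME cells. *He* alone made up 52.7% of the sum in TME cells and 68.6% in control cells. *crq* and *ush* behaved otherwise, and together with *Pxn* and *srp* they summed to 34.5 FPKM in tumor cells, 97.5 in TME cells and 131 in control cells. In these bulk libraries, fewer hemocytes and less of each RNA per hemocyte cannot be told apart. The tumor and control libraries held GFP+ cells and the TME library GFP- cells. The part of this selection in the blood cell content of each library was not tested.

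**Figure D1:**
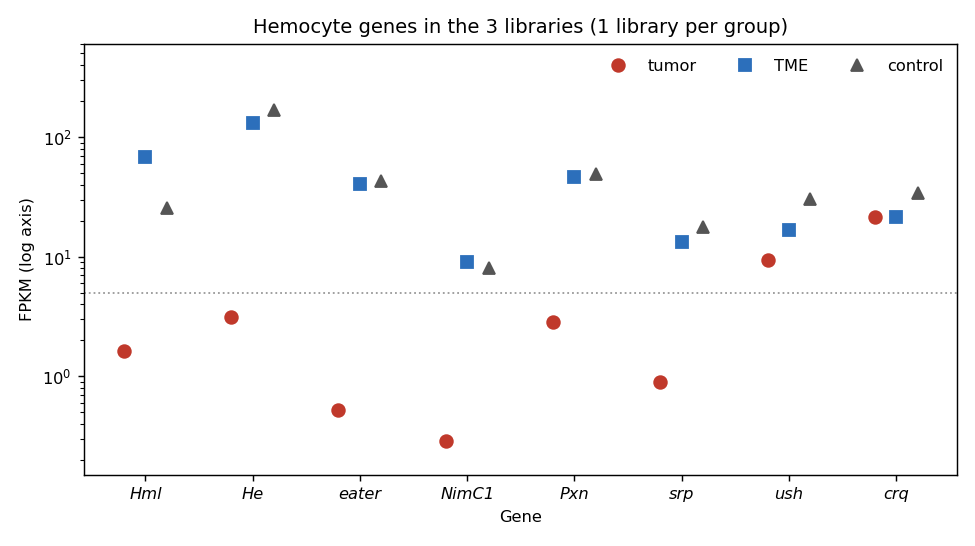
Level of each gene in FPKM (log axis) in the tumor (red circles), TME (blue squares) and control (gray triangles) libraries, 1 library each, with a dotted line at 5 FPKM. *Hml*, *He*, *eater*, *NimC1*, *Pxn* and *srp* lay below the line in the tumor alone, and *crq* was at 21.4 FPKM in tumor and TME alike.

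Among the receptors, *eater* encodes a Nimrod receptor by which plasmatocytes bind and engulf bacteria. It was at 0.518 FPKM in tumor cells, 40.5 in TME cells and 43.0 in control cells. The tumor value rests on about 3 fragments, against 1416 in TME cells and 241 in control cells. By the ratio of FPKM *eater* differed most of the 8 genes, though its interval overlaps that of the next gene and *He* differed more by FPKM + 1. It was 78.2-fold lower in tumor than in TME (26.7 to 379.6) and 82.9-fold lower than in control cells (28.0 to 405).

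*NimC1*, a Nimrod receptor for bacteria and the antigen of the P1 antibody that marks plasmatocytes, had the lowest levels of the 8 genes in every library. It was at 0.289 FPKM in tumor cells, 8.98 in TME cells and 8.02 in control cells. With about 1, 189 and 27 fragments in tumor cells, TME and control, the ratio was 31.1-fold lower in tumor than in TME with a wide interval (5.52 to 1235). The tumor was 27.8-fold lower than the control (4.58 to 1136), so that the order of magnitude of both differences is not fixed by these reads.

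*He*, or Hemese, a transmembrane glycoprotein found on the surface of all larval hemocyte classes, had the highest TME and control levels of the 8 genes. It was at 3.15 FPKM in tumor cells, 131 in TME cells and 168 in control cells. The tumor was 41.6-fold lower than the TME (11.5 to 344) and 53.1-fold lower than the control (14.4 to 443). The short transcript of *He* left about 2 tumor fragments despite its high level elsewhere.

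*crq*, or Croquemort, a scavenger receptor of the CD36 family that macrophages use to take up apoptotic cells, did not follow the other receptors. It was at 21.4 FPKM in tumor cells, 21.4 in TME cells and 34.1 in control cells. The tumor over TME ratio was 0.997 (0.763 to 1.29), and the tumor over control ratio was 0.627 (0.458 to 0.854). Neither was called.

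The exons of *crq* overlap those of *ex*, which encodes the Hippo pathway protein Expanded, on the opposite strand in the BDGP6 annotation, for 448 nt or 15.7% of the exon length of *crq*. *ex* was at 232 FPKM in tumor cells, 88.1 in TME cells and 46.0 in control cells, highest where the other hemocyte genes were lowest. Whether the counting used strand is not given in the sources used here, and without strand the reads of *crq* and *ex* cannot be told apart over the shared stretch, so the level of *crq* is uncertain. The part of *ex* in the *crq* values was not tested. The exons of *He* overlap those of its neighbor *NimB5* on the opposite strand for 78 nt, 11.6% of its exon length, and *NimB5* was at 0.564 FPKM in tumor cells, 15.1 in TME cells and 9.56 in control cells. *NimB5* was thus low in the tumor like *He* itself.

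Of the secreted proteins, *Hml*, or Hemolectin, is a large clotting factor made by plasmatocytes. It was at 1.64 FPKM in tumor cells, 68.2 in TME cells and 25.7 in control cells, and was the only one of the 8 genes at least 2-fold apart between TME and control. The tumor was 41.6-fold lower than the TME (29.9 to 59.8) and 15.7-fold lower than the control (11.1 to 22.8). Its transcript, of at least 11753 nt, gave the most fragments of the 8 genes in TME cells and the control, 8732 and 528, against 35 in tumor cells, and so the narrowest intervals of the 6 genes that were lower.

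*Pxn*, or Peroxidasin, is a secreted peroxidase that joins the basement membrane, where it crosslinks collagen IV. It was at 2.84 FPKM in tumor cells, 46.0 in TME cells and 49.4 in control cells. The tumor was 16.2-fold lower than the TME (9.25 to 31.5) and 17.4-fold lower than the control (9.76 to 34.3). About 12 tumor fragments stand behind its level.

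The regulators were split. *srp*, or Serpent, is the GATA factor required for hemocytes and also for the fat body. It was at 0.897 FPKM in tumor cells, 13.2 in TME cells and 17.6 in control cells. The tumor was 14.7-fold lower than the TME (6.24 to 45.4) and 19.7-fold lower than the control (8.13 to 62.1), from about 5 tumor fragments.

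*ush*, or U-shaped, is a Friend-of-GATA cofactor that binds Serpent in blood cells and Pannier in discs. It was at 9.43 FPKM in tumor cells, 16.9 in TME cells and 30.3 in control cells, in this order from low to high. The tumor was 1.79-fold lower than the TME (1.40 to 2.32), short of a call, and 3.22-fold lower than the control (2.45 to 4.27). The exons of *srp* and *ush* also overlap those of long noncoding RNA genes on the same strand, for 938 and 524 nt, which are not analysed here.

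Between tumor and TME, 6 of the 8 genes were called lower and 0 higher, where 8.72% of 7294 genes were called lower and 6.53% higher. The median log2 ratio of FPKM + 1 was -3.28 over the 8 genes and 0.08 over the 9523 genes with a mean of at least 1 FPKM. Ranked from the lowest of these 9523 log2 ratios, *He* was at place 23, *eater* at 28 and *Hml* at 32. *Pxn* was at place 112, *NimC1* at 191 and *srp* at 198, while *ush* was at 1232 and *crq* at 4116. In the order of the ratios themselves, *eater*, *Hml*, *He*, *NimC1*, *Pxn* and *srp* had intervals that overlapped from each gene to the next. *ush* stood apart from *srp*, and *crq* from *ush*, with intervals that did not overlap.

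Between tumor and control, 7 of the 8 genes were called lower and 0 higher, where 20.2% of 7985 genes were lower and 12.4% higher. The additional gene was *ush*. The median log2 ratio of FPKM + 1 was -3.32, against -0.07 over all genes. *eater*, *He*, *NimC1*, *srp*, *Pxn* and *Hml* followed each other with overlapping intervals, and *ush* and *crq* again stood apart. Both tumor comparisons share the tumor library, so a value of it that is off would move both.

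**Figure D2:**
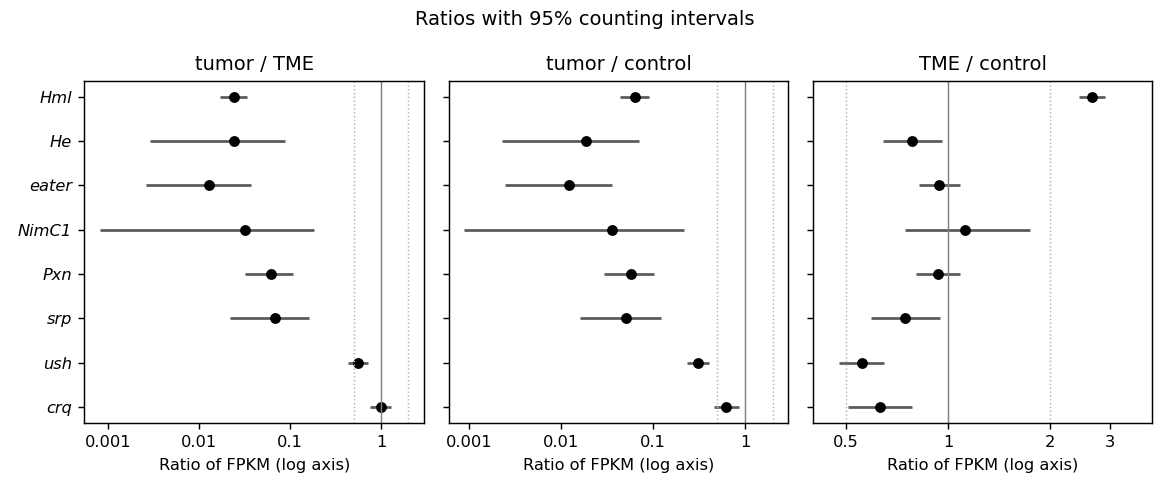
Ratios of FPKM (log axis) of the 8 genes for tumor over TME, tumor over control and TME over control, with exact 95% counting intervals as lines and dotted lines at 2-fold. Of the 8 genes, 6 lay below the lower dotted line for tumor over TME and 7 for tumor over control, and *Hml* alone lay above the upper one for TME over control.

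Between TME and control, the 8 genes differed by less than 2-fold apart from *Hml*. Of them 1 was called higher and 0 lower, where 6.39% of 7934 genes were called higher and 15.3% lower. *Hml* was 2.65-fold higher in the TME (2.43 to 2.90). *eater* had a ratio of 0.943 (0.822 to 1.09), *Pxn* of 0.931 (0.802 to 1.08) and *NimC1* of 1.12 (0.746 to 1.75), and these intervals hold 1. *He* was lower in the TME at a ratio of 0.783 (0.645 to 0.956) and *srp* at 0.746 (0.593 to 0.946), within 2-fold. *crq* at 0.629 (0.509 to 0.784) and *ush* at 0.556 (0.478 to 0.649) were the lowest. The median log2 ratio of FPKM + 1 was -0.23 over the 8 genes and -0.13 over all genes. The call of *Hml* remained with median ratio and upper quartile scaling and was lost with a ratio of at least 3.

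Within each library, the place of a gene among all genes above 0 shows how prominent it was there. *He* lay above 28.2% of these genes in tumor cells, 95.2% in TME cells and 96.5% in control cells. *Hml* lay above 21.3%, 90.03% and 70.2% of them in the tumor, TME and control, and *Pxn* above 27.2%, 85.1% and 85.7%. *He* and *Hml* thus lay far above the middle of the expressed genes in the TME, and *He* in the control too. *eater* lay above 8.97% of genes in tumor cells, 82.9% in TME cells and 83.1% in control cells. *NimC1* lay above 3.72%, 47.4% and 39.1%, and *srp* above 15.2%, 56.4% and 59.6%, so that both were near the middle in TME and control. *ush* lay above 42.8% of genes in tumor cells, 62.4% in TME cells and 74.9% in control cells, and *crq* above 63.2%, 68.8% and 78.1%. *crq* was the only one of the 8 genes above the middle of the expressed genes in the tumor.

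The genes also differed in their proportions to each other. In the tumor, *crq* made up 53.3% and *ush* 23.5% of the summed FPKM of the 8 genes, against 6.19% and 4.87% in TME cells and 9.07% and 8.07% in control cells. *He* was the largest part in the other libraries, at 37.9% in TME cells and 44.6% in control cells, against 7.86% in the tumor. Within the sum of *Hml*, *He*, *eater* and *NimC1*, *Hml* made up 29.3% in tumor cells, 27.4% in TME cells and 10.5% in control cells. *He* was at 1.92 times the level of *Hml* in both the tumor and the TME, and at 6.51 times in control cells. *eater* was at 0.316, 0.594 and 1.67 times the level of *Hml* in tumor cells, TME and control. The tumor proportions of *He*, *eater* and *NimC1* rest on 1 to 3 fragments each.

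*He* and *NimC1* lie side by side on chromosome arm 2L in a cluster of Nimrod genes, by the gene order of RefSeq's Release 6 assembly. This cluster was chosen with its values known. *NimB1*, *NimB2*, *NimB4* and *NimB5*, on the same side of *He*, were called lower in tumor than in TME cells as *He* and *NimC1* were. In this comparison 8.72% of all genes were called lower. *NimB1* was listed at 0 in the tumor and was at 20.7 FPKM in TME cells and 18.3 in control cells. *NimB4* was at 0.824 FPKM in tumor cells, 31.5 in TME cells and 13.9 in control cells, and was 2.26-fold higher in TME than in control (1.59 to 3.33), a call it shares with *Hml*. *NimB2* was at 0.424, 5.47 and 5.62 FPKM in tumor cells, TME and control. *NimB3* was listed at 0 in the tumor and was at 4.54 FPKM in TME cells and 1.78 in control cells, below the floor for a call.

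The other Nimrod genes of the cluster were low in tumor and TME alike. *NimC3* was listed at 0 in the tumor and was at 1.21 FPKM in TME cells and 16.0 in control cells. *NimC2* was listed at 0 in the tumor and was at 1.04 FPKM in TME cells and 5.94 in control cells. *NimA* was listed at 0 in the tumor and was at 0.727 FPKM in TME cells and 5.16 in control cells. These 3 genes were called lower in the TME than in control cells, beside 15.3% of all genes. Their ratios were 0.0757 for *NimC3* (0.0316 to 0.169), 0.175 for *NimC2* (0.0954 to 0.323) and 0.141 for *NimA* (0.0678 to 0.289). The neuronal receptor gene *nAChRalpha5*, which lies between *NimC3* and *NimC4*, was at 0.0656 FPKM in tumor cells, 0.303 in TME cells and 8.88 in control cells, and shared their pattern. *crq* and *ush* are also near each other on 2L, with 4 protein-coding genes between them.

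**Figure D3:**
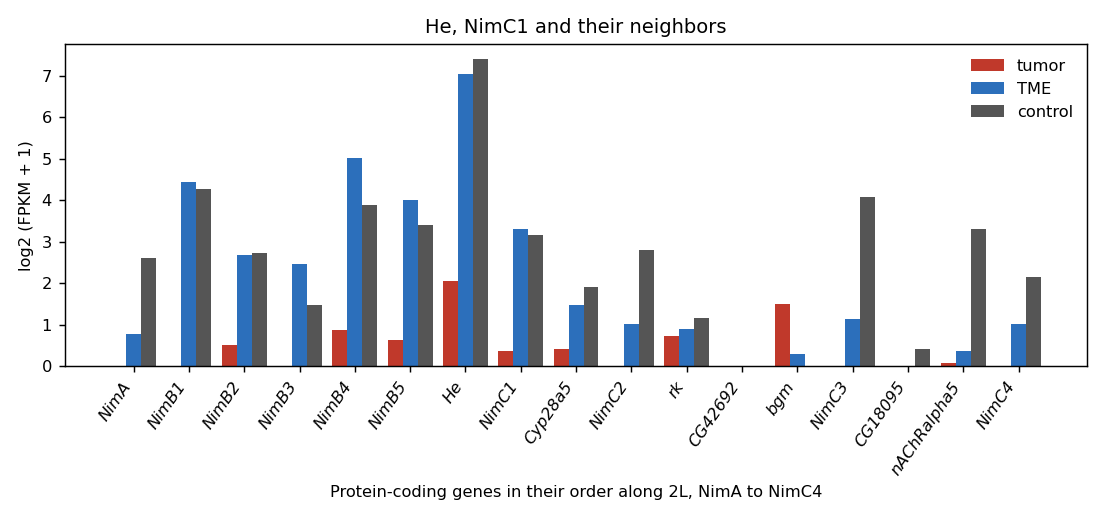
Levels as log2 (FPKM + 1) of the protein-coding genes from *NimA* to *NimC4* in their order along 2L, in the tumor (red), TME (blue) and control (dark gray), with 1 gene of the stretch not analysed here. *NimB1* to *NimC1* had bars in TME and control and low or no bars in tumor cells, while *NimA*, *NimC2*, *NimC3* and *NimC4* were highest in control cells.

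Receptor genes of phagocytosis outside the 8 genes, listed together with complement-like genes, were mixed. Of 22 listed, 14 were above 5 FPKM in tumor or TME, and 7 of these were called lower in the tumor and 1 higher, beside 8.72% and 6.53% of all genes. Between tumor and control, 12 of 18 were lower and 3 higher, beside 20.2% and 12.4% of all genes. The scavenger receptor gene *Sr-CI* was at 2.90 FPKM in tumor cells, 74.1 in TME cells and 48.2 in control cells, 25.6-fold lower in tumor than in TME (13.9 to 53.4). *drpr*, or Draper, a receptor of the engulfment of dying cells that glia and epithelia also use, was at 37.4 FPKM in tumor cells, 54.4 in TME cells and 59.8 in control cells, with no call. The complement-like genes went different ways. *Tep4* was at 64.2, 113 and 165 FPKM in tumor cells, TME and control, *Tep3*, higher in tumor cells, at 30.1, 9.58 and 6.84 FPKM, and *Mcr* at 89.0, 54.9 and 29.2 FPKM. *emp*, a gene of the CD36 family like *crq*, was at 80.8 FPKM in tumor cells, 69.7 in TME cells and 31.5 in control cells. *Tep3*, *Mcr* and *emp* were the 3 genes of this list called higher in tumor than in control cells.

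The machinery inside the phagocyte is used by most cells. Of its 13 genes, 1 was called lower in tumor than in TME cells and 0 higher, a share near the 8.72% of all genes called lower, with a median log2 ratio of FPKM + 1 of -0.02. The gene was *ced-6*, the adaptor of Draper, at 22.2 FPKM in tumor cells, 63.8 in TME cells and 74.3 in control cells (2.88-fold lower in tumor than in TME, 2.31 to 3.62). *ced-6* was also the only gene of the 13 called between tumor and control, where 20.2% of all genes were lower, and 0 were called between TME and control, where 15.3% of all genes were lower and 6.39% higher.

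Genes of 2 further groups that plasmatocytes express were partly lower as well. Of 10 basement membrane genes 5 were lower and 1 was higher in tumor than in TME cells, beside 8.72% and 6.53% of all genes, where *Pxn* itself was 16.2-fold lower. The 5 were *Glt*, *Ppn*, the collagen IV chain genes *Col4a1* and *vkg*, and *SPARC*, a collagen-binding protein gene at 10.8 FPKM in tumor cells, 187 in TME cells and 183 in control cells. *Tig*, or Tiggrin, an integrin ligand, went the other way, at 291, 51.9 and 37.6 FPKM. Of 6 genes of clotting and of the imaginal disc growth factors, 4 were lower (*Idgf1*, *Idgf2*, *Idgf3* and *Idgf6*) and 1 was higher. The higher was *Tg*, the transglutaminase that crosslinks the clot, at 31.0 FPKM in tumor cells, 8.71 in TME cells and 3.67 in control cells. Between TME and control, 2 of the 6 clotting and growth factor genes, *Tg* and *Idgf4*, were called higher in the TME, and 0 lower. Of the 10 basement membrane genes 1, *Ppn*, was called higher and 0 lower. Of all genes, 6.39% were called higher and 15.3% lower.

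Of 6 regulators of blood cells other than *srp* and *ush* above 5 FPKM in tumor or TME, 1 was lower and 1 higher in the tumor, beside 8.72% and 6.53% of all genes. The lower was *zfh1*, a zinc finger factor of hemocytes, glia and mesoderm, at 2.24 FPKM in tumor cells, 32.6 in TME cells and 38.8 in control cells (14.5-fold lower in tumor than in TME, 8.63 to 26.7). The higher was *Pvf1*, a ligand of the PDGF and VEGF type, at 31.6 FPKM in tumor cells, 5.87 in TME cells and 5.52 in control cells. *Pvr*, the receptor of *Pvf1* on hemocytes and epithelia, was at 44.8, 23.5 and 26.6 FPKM in tumor cells, TME and control, short of a call. Between tumor and control, 3 of 8 regulators were lower (*zfh1*, *gcm* and *kn*) and 2 higher (*Pvf1* and *odd*), beside 20.2% and 12.4% of all genes. Between TME and control, 2 of 7 were lower and 1, *odd*, was higher, beside 15.3% and 6.39% of all genes. The lower were *gcm*, at a ratio of 0.233 (0.160 to 0.343), and *kn*, at 0.114 (0.0681 to 0.188). Among the other GATA genes, *pnr* was lower in tumor cells, at 4.50 FPKM against 11.2 in TME cells and 10.9 in control cells. *GATAd* was at 25.0, 19.6 and 29.1 FPKM in tumor cells, TME and control, with no call, and *GATAe* was listed at 0 in all 3 libraries.

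Markers of the other hemocyte classes were measured as well. The prophenoloxidase genes of crystal cells had the direction of the plasmatocyte genes. *PPO2*, written *PO45* in the table, was at 1.02 FPKM in tumor cells, 131 in TME cells and 103 in control cells (128-fold lower in tumor than in TME, 50.0 to 470.3). *PPO1*, written *proPO-A1*, was at 1.74 FPKM in tumor cells, 119 in TME cells and 78.0 in control cells. The crystal cell factor gene *lz*, also used in the eye, was at 4.60 FPKM in tumor cells, 5.22 in TME cells and 1.53 in control cells, and *peb*, likewise used in the eye, at 6.64, 4.16 and 4.03 FPKM. Of 4 crystal cell genes 2 were called lower in tumor than in TME cells and 0 higher, beside 8.72% and 6.53% of all genes. Of the lamellocyte genes, 2 of 3 above 5 FPKM were lower in tumor than in TME cells, beside 8.72% of all genes. The same 2 were higher in TME than in control cells, beside 6.39% of all genes. Among these, *atilla* was at 6.00 FPKM in tumor cells, 16.8 in TME cells and 6.94 in control cells, called higher in TME than in control (2.42-fold, 1.13 to 6.16). Its levels rest on about 6, 106 and 7 fragments. The other was *ItgaPS5*, at 2.86, 11.9 and 5.52 FPKM in tumor cells, TME and control. *msn*, the highest of the list, was at 103 FPKM in tumor cells, 76.5 in TME cells and 104 in control cells, with no call. *ItgaPS4*, under the floor, was at 1.45, 2.65 and 3.17 FPKM in tumor cells, TME and control. *PPO3*, the prophenoloxidase of lamellocytes, was at 0.793 FPKM in tumor cells, 2.35 in TME cells and 0.816 in control cells, under the floor.

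**Figure D4:**
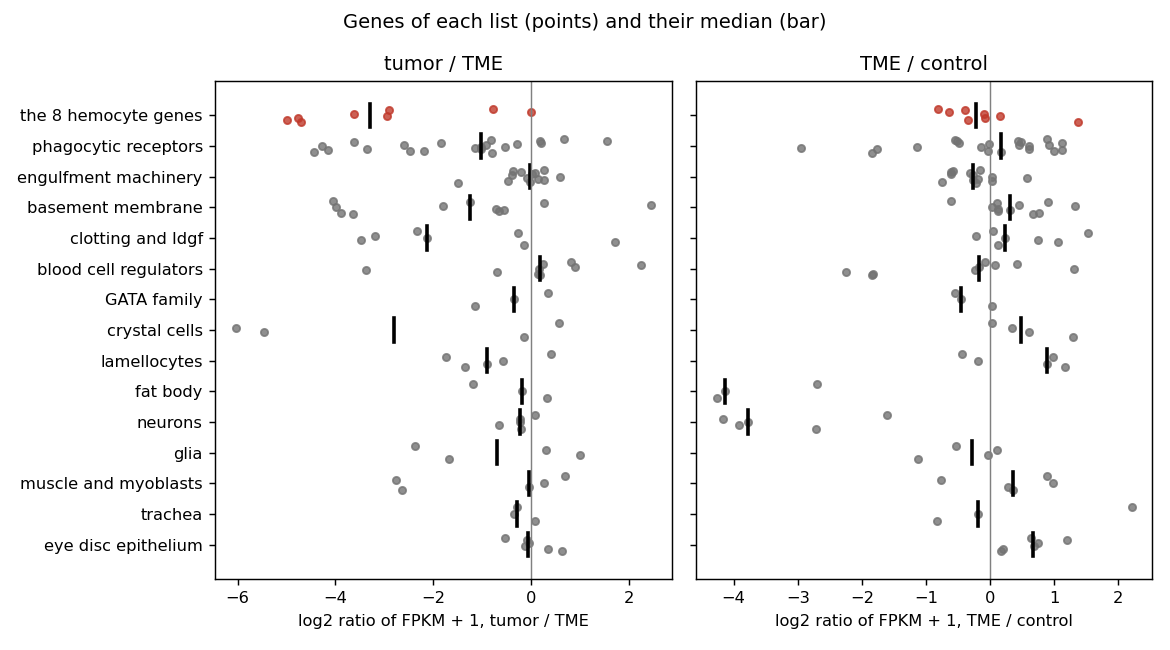
Log2 ratios of FPKM + 1 for tumor over TME (left) and TME over control (right), with a point for each gene with a mean of at least 1 FPKM and a bar at the median of each list. The 8 hemocyte genes (red) had a median of -3.28 on the left and -0.23 on the right, while fat body and neuron genes lay low on the right.

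Cell types other than hemocytes also differed between the libraries, and their part in the levels above was not tested. The 5 neuron genes summed to 13.5 FPKM in tumor cells, 16.4 in TME cells and 200.0 in control cells. All 5 were called lower in tumor than in control, beside 20.2% of all genes, and lower in TME than in control, beside 15.3%. The 6 fat body genes summed to 0.716 FPKM in tumor cells, 2.59 in TME cells and 53.0 in control cells, with *Fbp1* and *Fbp2* listed at 0 in the tumor and *Lsp2* at 0 in the TME. The 4 glia genes summed to 190 FPKM in tumor cells, 162 in TME cells and 171 in control cells, and among them *repo*, the defining factor of glia, was at 3.06 FPKM in tumor cells, 12.1 in TME cells and 27.5 in control cells. The 5 muscle and myoblast genes summed to 39.8 FPKM in tumor cells, 67.8 in TME cells and 73.1 in control cells. Among them *twi*, the marker of disc myoblasts, was at 1.26 FPKM in tumor cells, 13.1 in TME cells and 10.03 in control cells, and *Act57B* at 2.77, 24.5 and 42.3 FPKM. Of the glia genes 2, *repo* and *wrapper*, were called lower in tumor than in TME cells and 1, *moody*, higher. Of the muscle and myoblast genes 2, *twi* and *Act57B*, were lower, beside 8.72% of all genes lower and 6.53% higher. *moody* was at 20.6 FPKM in tumor cells and 9.69 in TME cells. *nrv2* was at 166 and 133 FPKM, *Mef2* at 19.2 and 19.7 and *sls* at 12.1 and 7.11, with no call. The direction of the hemocyte genes was thus seen in only a part of each list. The 3 tracheal genes summed to 296 FPKM in tumor cells, 360 in TME cells and 81.7 in control cells, nearly all of it *Gasp*.

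The genes most like the hemocyte genes were sought by the distance of their log2 ratios of FPKM + 1, tumor over TME and control over TME, from the mean of *Hml*, *He*, *eater* and *NimC1*. That mean was -4.36 for tumor over TME and -0.27 for control over TME. Among 6943 genes at 5 FPKM or more in the TME, the 10 nearest outside the 8 were *NimB1*, *CG5397*, *Mtk*, *snoRNA:Psi28S-1153*, *Sr-CI*, *CG42807*, *CG1092*, *SPARC*, *Karl* and *CG7777*. *Mtk*, or Metchnikowin, encodes an antimicrobial peptide and was listed at 0 in tumor cells, and was at 16.7 FPKM in TME cells and 16.2 in control cells. *Karl*, a lipocalin gene, was at 3.56, 71.7 and 70.6 FPKM in tumor cells, TME and control. The likeness rests on 3 libraries and is a description. In the same ranking *Pxn* was at place 41 and *srp* at 138, and *ush* and *crq* were far, at 787 and 2982. *eater* was at place 13, *He* at 49, *Hml* at 85 and *NimC1* at 112. The mean was taken from these last 4 genes, so their nearness to it is partly built in. In all, 312 of the 6943 genes were at least 4-fold lower in tumor than in TME on this scale.

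**Figure D5:**
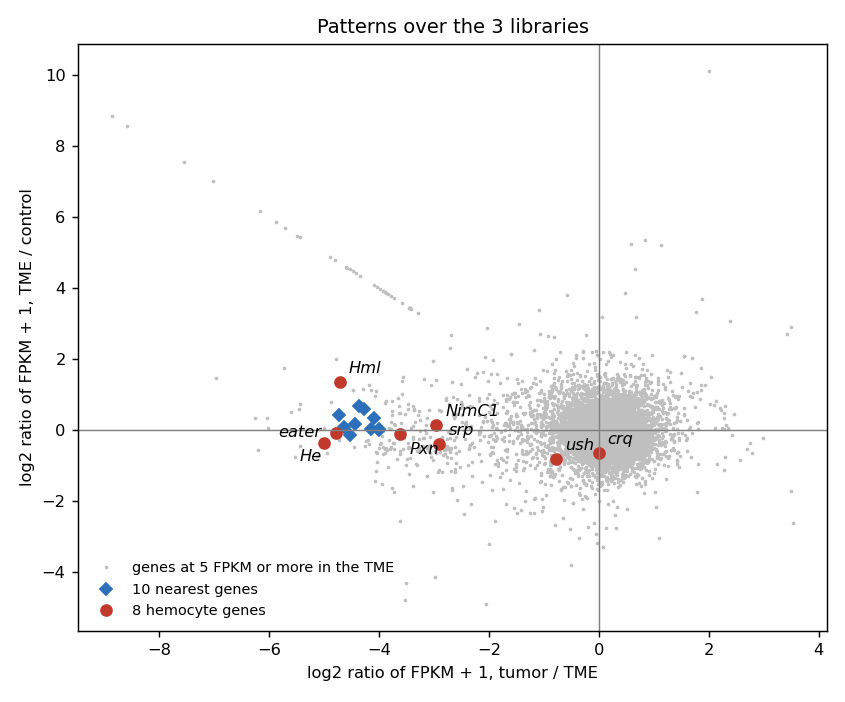
Log2 ratios of FPKM + 1, tumor over TME on the x axis and TME over control on the y axis, for 6943 genes at 5 FPKM or more in the TME (gray), the 10 genes nearest to the mean of *Hml*, *He*, *eater* and *NimC1* (blue diamonds) and the 8 hemocyte genes (red circles). 6 of the 8 lie at the left, with *Hml* above the others, and *ush* and *crq* lie with most genes near 0.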

How the data were processed

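The authors extracted RNA (Trizol in the labels, Qiagen RNAmini kits in the methods), prepared TruSeq libraries from polyA RNA, sequenced them on a MiSeq, and mapped reads with the Tuxedo suite to Drosophila genome release 5.2. FPKM values per gene were deposited by the authors for 3 libraries, and all 3 columns were used. Suite version, annotation and strand setting were not given in the sources used here.

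Depth was fitted from the steps of FPKM over genes with 1 transcript of 400 to 4000 nt in the Ensembl BDGP6 annotation, to which 97.1% of genes matched. It also gave exon overlaps, and none of its coordinates are printed. Of the low values, 82.6% (tumor), 78.7% (TME) and 81.5% (control) came within 0.1 of whole fragments. Fragments per gene used the shortest transcript, and *NimC1*, *He* and *eater* have 1 to 3 of them in the tumor. Ratios have exact 95% Clopper-Pearson intervals. The fit was run on simulated data made with the formula that it inverts. This cannot tell whether the deposited FPKM follow that formula. Python 3.11.15, numpy 2.4.6, pandas 2.3.3, scipy 1.17.1 and matplotlib 3.10.9 were used.

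The 8 genes and 15 lists were chosen with earlier results of these data known. Named genes come mostly from the 8, the 10 of nearest pattern and the 4 highest of each list by mean FPKM. Called genes of a list where 5 or fewer and genotype checks were named too. Added with values known were neighbors of *He* and *NimC1*, overlapping genes, *twi*, *PPO3* and *ItgaPS5*. Not all of the 4 highest are named above. Among those left out, *Crk*, *Rab5*, *Rab7*, *Cdc42*, *LanB1*, *Pvf2* and *grn* had no call in any comparison. Alternatives were other ratios, floors, pseudocounts, scalings, transcript lengths and subsets. Promoter and protein sequences were not analysed here.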

Additional observations from a re-analysis of the deposited data

How the results depend on the processing

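The count of genes lower in the tumor ranged from 5 to 7 against the TME and from 6 to 8 against the control over the alternatives tried, and none was higher. Between TME and control the count was 3 with a ratio of at least 1.5 (*Hml* higher, *crq* and *ush* lower) and 0 with a ratio of at least 3. Shares of all genes are given for the main rule only. The counts with other ratios and floors thus have no share beside them. The median log2 ratio of tumor over TME, -3.28 with a pseudocount of 1, was -4.74 with only *Hml*, *He*, *eater* and *NimC1*, -4.26 with a pseudocount of 0.1 and -2.16 with 5. That of tumor over control, -3.32, was -4.11 with a pseudocount of 0.1 and -2.08 with 5. Of the 24 ratios of single genes, all stayed within their counting intervals with median ratio scaling. With a pseudocount of 1, 22 did, the others being *Hml* in tumor over TME and tumor over control. Use of the longest transcript cannot move a ratio of FPKM, only its interval. For *NimC1* in tumor over TME the interval was 0.00081 to 0.181 with the shortest transcript and 0.00387 to 0.117 with the longest. No paired analysis was possible because each group has 1 library. Depth limits *eater*, *NimC1*, *He* and *srp* in the tumor, at 5 fragments or fewer each. No replicate could be left out.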
